A study of Mus musculus with 12 samples.

Results

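The 9 genes described here encode the kinases and adaptors that act first after the T cell receptor is engaged: Lck, Fyn, Zap70, Txk, Lat, Lcp2, Grap2, Plcg1 and Vav1. They were chosen by name as the proximal signaling module, with earlier results of these data known. Counts of members beside the share of all genes are therefore a description. All 9 were found among the 35907 genes of the files. All 9 passed the filter on low counts in every comparison.

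Upon receptor engagement, the Src family kinases Lck and Fyn phosphorylate the tails of the CD3 chains, to which the kinase Zap70 then binds. Active Zap70 phosphorylates the membrane adaptor Lat and the cytosolic adaptor Lcp2 (SLP-76), which the adaptor Grap2 (Gads) joins together. On this scaffold sit phospholipase C gamma, encoded by Plcg1, which opens the calcium and diacylglycerol branches, and Vav1, an exchange factor for small GTPases that leads to the cytoskeleton. Txk is a Tec family kinase of T cells.

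RNA of mouse spleen T cells was sequenced in 12 libraries, 3 in each of 4 groups, and the labels number the 3 as biological replicates. TCF-1 cKO mice carry a floxed Tcf7 gene, which encodes TCF-1, deleted by Cre recombinase under the Cd4 promoter, so that CD4 and CD8 lineage cells both lack it from the double-positive thymocyte stage onward, and WT mice are the controls. The groups are TCF-1 cKO Pre-Tx and WT Pre-Tx, sorted from adult donor mice, and TCF-1 cKO Post-Tx and WT Post-Tx, donor cells re-isolated at day 7 from spleens of lethally irradiated BALB/c hosts that also received T cell-depleted bone marrow. The effects of day, host and state of the cells cannot be told apart between Pre-Tx and Post-Tx libraries. The labels name CD4 T cells, whereas the series text names CD8 cells before transplant and both lineages after it. The series text speaks of 3 different mice before transplant, and no label ties a Post-Tx library to a recipient, so p-values measure the spread between these libraries.

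The targeted gene did not separate the labels before transplant, and at day 7 this depended on the scaling. Tcf7 had 179, 136 and 163 CPM (counts scaled to the library total) in the libraries labelled TCF-1 cKO Pre-Tx, against 197, 175 and 112 CPM in those labelled WT Pre-Tx. It had 109, 139.9 and 146 CPM in the libraries labelled TCF-1 cKO Post-Tx, against 145, 171 and 159 CPM in those labelled WT Post-Tx. In these CPM the groups overlapped at both stages, at day 7 only by 145.6 CPM (cKO label) against 145.4 CPM (WT label). Log2 fold changes, fitted with scaling by trimmed means (TMM), were -0.04 before transplant (adjusted p = 0.924) and -0.66 at day 7 (adjusted p = 0.0669). The TMM factors at day 7 were 1.07 to 1.23 in TCF-1 cKO Post-Tx, against 0.807 to 0.963 in WT Post-Tx. Divided by these factors, the day 7 groups did not overlap, with TCF-1 cKO Post-Tx lower. A floxed allele loses part of the gene and whole transcripts were counted, so Tcf7 checks neither label. TCF-1 cKO and WT hereafter mean the libraries so labelled, and every direction between them rests on the labels.

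Library totals ranged from 17103415 to 49486745 estimated counts. At day 7 they did not overlap, at 18022093 to 23098887 in TCF-1 cKO Post-Tx, against 27109156 to 49486745 in WT Post-Tx. In the Pre-Tx libraries the defining markers did not match a pure CD4 T cell sort. Cd4 lay at 65.4 to 86.5 CPM in TCF-1 cKO Pre-Tx, against 68.7 to 151 CPM in WT Pre-Tx. Cd8a lay at 71.4 to 81.6 CPM in TCF-1 cKO Pre-Tx, against 130 to 166 CPM in WT Pre-Tx. Cd8b1 lay above Cd4, at 223 to 239 CPM in TCF-1 cKO Pre-Tx, against 256 to 325 CPM in WT Pre-Tx. The summed level of 12 B cell markers was 9609 to 10711 CPM in TCF-1 cKO Pre-Tx, against 7745 to 9122 CPM in WT Pre-Tx, but 76.7 to 134 CPM in TCF-1 cKO Post-Tx, against 56.7 to 106 CPM in WT Post-Tx. In the Post-Tx libraries Cd4 was 709 to 856 CPM in TCF-1 cKO, against 1096 to 1164 CPM in WT. Both CD8 genes were low but higher in TCF-1 cKO Post-Tx without overlap. Cd8a was 10.2 to 15.4 CPM in TCF-1 cKO Post-Tx, against 1.04 to 7.00 CPM in WT Post-Tx. Cd8b1 was 42.2 to 45.6 CPM in TCF-1 cKO Post-Tx, against 15.8 to 35.3 CPM in WT Post-Tx. In bulk RNA, fewer T cells in a library and less RNA of a gene per T cell cannot be told apart, so each member is given per library total and per CD3 chain transcript.

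Promoter windows of 300 bases (250 before to 50 after a transcript start) were taken from RefSeq on GRCm38.p6, where 13 windows matched the 9 genes. They were searched on both strands for CTTTGAT and CTTTGAA, which TCF-1 and its LEF relatives recognize, for the RUNX motif TGTGGTT and for the ETS motif CCGGAAG. Either TCF/LEF motif was in 2 of 13 member windows and in 8.65% of all 32851 windows, the RUNX motif in 2 of 13 and 5.27%, and the ETS motif in 0 of 13 and 8.86%. A match describes letters only. The windows of Fyn and Txk are shown since they hold the TCF/LEF matches, and those of Lck since its distal and proximal starts were measured separately. Each is written 5′ to 3′ on the strand of the gene, with matches in capitals.
Fyn (chr10:39369549-39369848, + strand): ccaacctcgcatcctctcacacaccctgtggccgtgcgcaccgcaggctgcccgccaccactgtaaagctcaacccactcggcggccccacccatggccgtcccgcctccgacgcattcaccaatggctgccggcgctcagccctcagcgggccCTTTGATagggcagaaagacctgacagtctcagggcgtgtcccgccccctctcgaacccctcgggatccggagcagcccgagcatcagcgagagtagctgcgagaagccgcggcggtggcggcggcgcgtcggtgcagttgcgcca
Txk (chr5:72752728-72753027, - strand): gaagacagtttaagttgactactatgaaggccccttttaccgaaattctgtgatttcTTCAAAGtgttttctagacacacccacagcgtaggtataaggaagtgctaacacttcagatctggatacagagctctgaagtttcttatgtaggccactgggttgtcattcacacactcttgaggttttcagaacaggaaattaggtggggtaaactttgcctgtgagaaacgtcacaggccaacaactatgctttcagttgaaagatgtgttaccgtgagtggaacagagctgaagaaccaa
Lck distal (chr4:129573592-129573891, - strand): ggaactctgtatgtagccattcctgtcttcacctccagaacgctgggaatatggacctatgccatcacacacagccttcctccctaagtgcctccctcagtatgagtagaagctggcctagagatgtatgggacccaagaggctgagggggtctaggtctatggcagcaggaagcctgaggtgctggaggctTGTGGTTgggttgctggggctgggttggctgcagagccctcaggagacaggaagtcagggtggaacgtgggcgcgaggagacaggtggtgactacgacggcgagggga
Lck proximal (chr4:129558323-129558622, - strand): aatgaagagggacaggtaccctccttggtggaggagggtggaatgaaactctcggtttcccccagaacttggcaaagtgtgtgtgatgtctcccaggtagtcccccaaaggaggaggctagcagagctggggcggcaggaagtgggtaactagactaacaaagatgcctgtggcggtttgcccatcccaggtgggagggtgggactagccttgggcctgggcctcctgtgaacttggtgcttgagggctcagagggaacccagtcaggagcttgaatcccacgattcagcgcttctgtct
The capitals are CTTTGAT in Fyn, beginning at position -96 from the start, the reverse complement of CTTTGAA in Txk at -193, and TGTGGTT in distal Lck at -58. The Fyn window lies at the upstream starts of the gene, not at that of the leading transcript Fyn-205.

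Levels per transcript length, in TPM (transcript abundance scaled to a fixed total), placed Lck first in all 4 groups. Lck averaged 308 ± 12.4 TPM in TCF-1 cKO Pre-Tx, against 523 ± 98.0 TPM in WT Pre-Tx (SD, n = 3 each), and 1040 ± 34.7 TPM in TCF-1 cKO Post-Tx against 1404 ± 267 TPM in WT Post-Tx (n = 3 each). In both Post-Tx groups the order then ran Lat, Zap70, Lcp2, Vav1, Fyn and Grap2, with no overlap between neighbours down to Grap2. Txk and Plcg1 came last after transplant, and their ranges overlapped in both genotypes. Vav1 stood in a different place before transplant. It was second in TCF-1 cKO Pre-Tx, with 120 ± 17.1 TPM, above Lat at 71.7 ± 11.4 TPM, and the ranges did not overlap. In WT Pre-Tx Lat was second at 145 ± 8.40 TPM, and Zap70 at 88.5 ± 10.4 TPM and Vav1 at 83.7 ± 17.1 TPM overlapped. Grap2, Lcp2, Zap70, Txk and Fyn formed a run of overlapping neighbours in TCF-1 cKO Pre-Tx, and Grap2, Lcp2, Txk, Fyn and Plcg1 did so in WT Pre-Tx. The lowest member in both Pre-Tx groups was Plcg1, with 5.61 ± 3.26 TPM in TCF-1 cKO and 9.11 ± 3.84 TPM in WT.

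To examine whether loss of TCF-1 goes with an altered proximal module in donor cells before transplant, the libraries labelled TCF-1 cKO Pre-Tx were compared with those labelled WT Pre-Tx. Lck, Zap70 and Lat were lower in TCF-1 cKO and no member was higher. Thus 3 of 9 members fell, where 5.65% of all 17021 genes tested fell, and 0 of 9 rose, where 8.52% rose. Genotype values below are CPM normalized within a stage by trimmed means (TMM), and a call is an adjusted p under 0.05 in edgeR's quasi-likelihood test. The median log2 fold change of the members was 0.22, against -0.11 over all genes.

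Lck, the kinase that starts the cascade, had 516, 495 and 538 normalized CPM in TCF-1 cKO Pre-Tx, against 876, 1270 and 1066 in WT Pre-Tx. The groups did not overlap, and the 3 TCF-1 cKO libraries lay close together. The log2 fold change was -1.05 ± 0.20 (SE), with an adjusted p of 0.0119. Zap70, the kinase recruited to phosphorylated CD3 chains, had 57.5, 63.1 and 77.3 normalized CPM in TCF-1 cKO Pre-Tx, against 155, 212 and 210 in WT Pre-Tx. Its log2 fold change of -1.54 ± 0.23 (adjusted p = 0.00653) was the most negative of the 9, and the groups were again apart. The scaffold Lat had 58.5, 78.2 and 62.4 normalized CPM in TCF-1 cKO Pre-Tx, against 136, 143 and 199 in WT Pre-Tx. These also did not overlap, at a log2 fold change of -1.26 ± 0.24 (adjusted p = 0.0126).

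The other kinases were not called. Fyn had 48.8, 37.8 and 37.1 normalized CPM in TCF-1 cKO Pre-Tx against 44.5, 33.9 and 24.5 in WT Pre-Tx, with a log2 fold change of 0.27 ± 0.31 and overlapping groups. Txk had 92.2, 36.4 and 51.0 in TCF-1 cKO Pre-Tx against 57.0, 49.2 and 26.8 in WT Pre-Tx, and replicate 1 of TCF-1 cKO was far above the other libraries. Among the adaptors, Lcp2 had 102, 94.8 and 112 in TCF-1 cKO Pre-Tx against 66.0, 95.8 and 102 in WT Pre-Tx. Grap2 had 72.3, 57.3 and 54.4 in TCF-1 cKO Pre-Tx against 51.3, 56.8 and 42.2 in WT Pre-Tx. Lcp2 and Grap2 overlapped between the genotypes, at log2 fold changes of 0.22 ± 0.24 and 0.29 ± 0.26.

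Of the effectors, Plcg1 had 26.9, 11.4 and 34.6 normalized CPM in TCF-1 cKO Pre-Tx against 34.3, 67.7 and 34.0 in WT Pre-Tx. One library of each genotype stood apart, and the log2 fold change of -0.90 ± 0.43 missed the threshold (adjusted p = 0.167). Vav1 had 350, 273 and 329 in TCF-1 cKO Pre-Tx against 200, 309 and 294 in WT Pre-Tx, a log2 fold change of 0.25 ± 0.22. The 6 members that did not pass had adjusted p from 0.167 to 0.570.

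**Figure D1:**
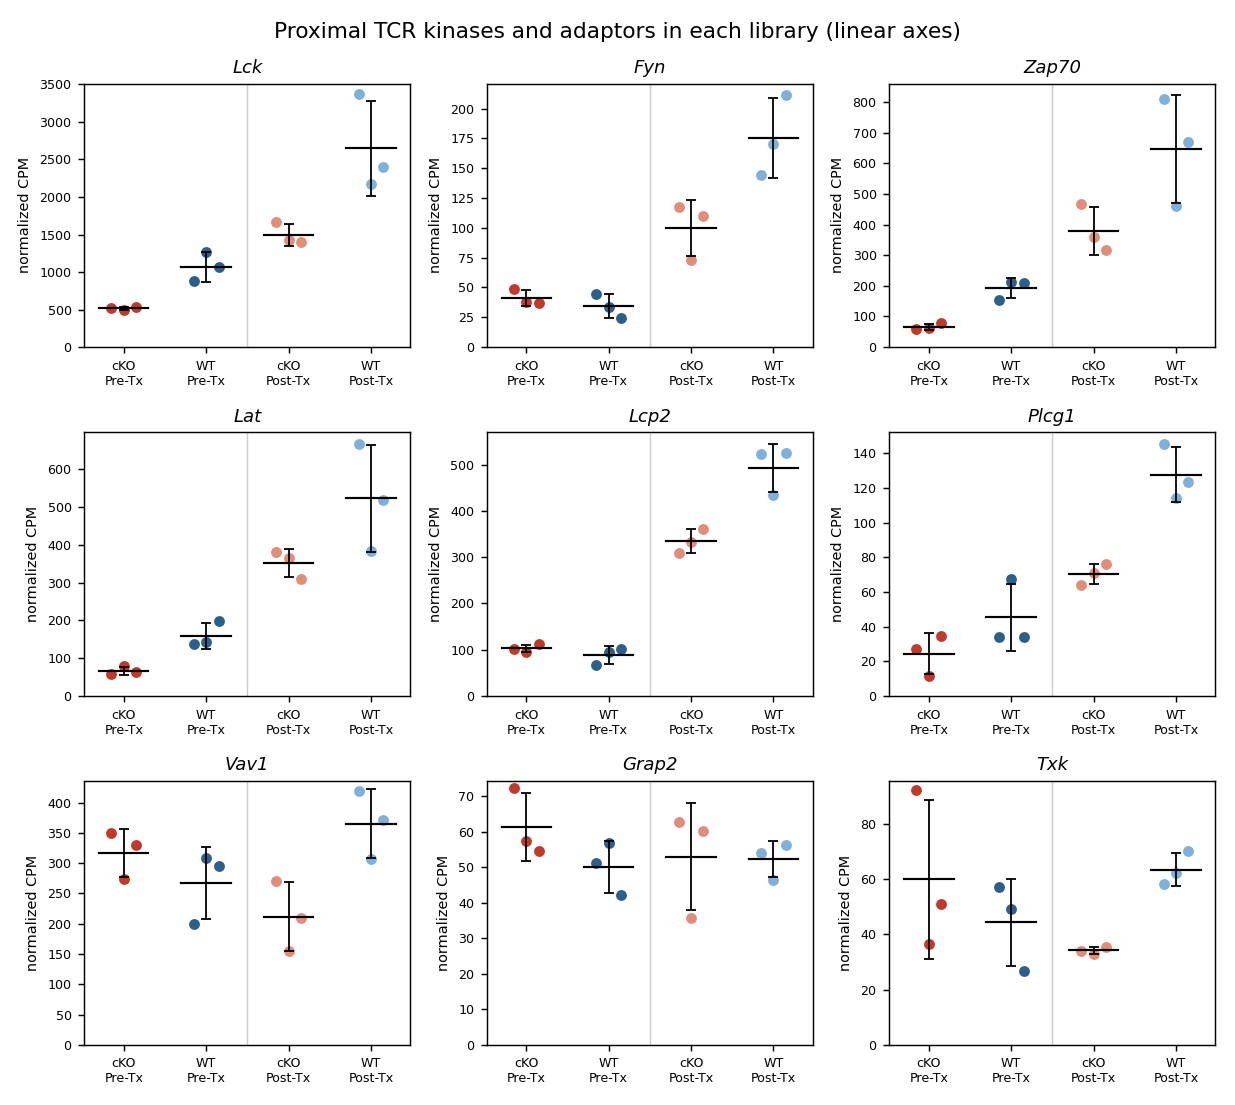
Normalized CPM (linear axes from 0) of the 9 members in each of the 12 libraries, by group, with TMM scaling done within Pre-Tx and within Post-Tx; points are libraries, bars the mean ± SD of 3. Lck, Zap70 and Lat lie lower in all 3 TCF-1 cKO Pre-Tx libraries than in any WT Pre-Tx library, whereas Grap2 overlaps between genotypes at both stages.

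The 3 calls rested on single libraries to different degrees. Zap70 remained called when any library but WT Pre-Tx replicate 1 was left out, Lat in 4 of 6 such fits and Lck in 3 of 6. Without TCF-1 cKO Pre-Tx replicate 1, 1 member was called, and without TCF-1 cKO Pre-Tx replicate 2, 2 members. Without WT Pre-Tx replicate 1, 0 members were called, but that fit called 14 of 17728 genes in all. WT Pre-Tx replicate 1 had the highest level of olfactory receptor genes before transplant, which T cells do not use, at 7011 CPM, against 2532 and 4565 CPM in the other WT Pre-Tx libraries and 880 to 1550 CPM in TCF-1 cKO Pre-Tx.

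The summed level of 13 T cell markers was 2011 ± 109 CPM in TCF-1 cKO Pre-Tx, against 3280 ± 327 CPM in WT Pre-Tx (n = 3 each), with 5 of 13 called lower and 0 higher. The median log2 fold change of the 13 was -0.69. The 8 not called included Cd28 (0.74) and Cd2 (0.06), named after their values were seen. The 41 other T cell receptor signaling genes summed to 6242 ± 413 CPM in TCF-1 cKO Pre-Tx, against 5410 ± 752 CPM in WT Pre-Tx. The libraries overlapped, with 9 of the 41 called higher and 6 lower. Among the 9, Ptprc averaged 850 CPM in TCF-1 cKO Pre-Tx, against 289 CPM in WT Pre-Tx. Among the 6, Cd3e averaged 119 CPM in TCF-1 cKO Pre-Tx, against 278 CPM in WT Pre-Tx. The B cell marker sum was 10058 ± 578 CPM in TCF-1 cKO Pre-Tx, against 8352 ± 703 CPM in WT Pre-Tx, with 6 of 12 called higher. That of 8 NK cell markers was 670 ± 32.3 CPM in TCF-1 cKO Pre-Tx, against 279 ± 69.2 CPM in WT Pre-Tx, with 4 of 8 called higher, and NK cells also carry Lck, Zap70 and Lat. Macrophage and monocyte (2 of 8 called higher), platelet and erythroid (none called) marker sums overlapped between the genotypes. The part of these cell types in the levels of the members was not tested.

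Levels were therefore also set against the summed counts of the CD3 chains Cd3e, Cd3d, Cd3g and Cd247. These chains summed to 464, 486 and 571 CPM in TCF-1 cKO Pre-Tx, against 887, 973 and 938 CPM in WT Pre-Tx, with no overlap. Per CD3 transcript, Zap70 was the only member lower in TCF-1 cKO Pre-Tx without overlap. Its ratio was 0.125, 0.130 and 0.138 in TCF-1 cKO Pre-Tx, against 0.191, 0.212 and 0.201 in WT Pre-Tx, a log2 difference of -0.62. That is 1 of 9 members, where 5.58% of all genes were lower without overlap. With Cd3e as the only denominator the Zap70 difference was -0.28. Cd3e and Cd3d had fallen (log2 fold changes -1.27 and -1.20), while Cd247 at -0.80 and Cd3g at -0.21 were not called.

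Lck and Lat were not apart between the genotypes on this scale. The Lck ratio was 1.12, 1.02 and 0.964 in TCF-1 cKO Pre-Tx, against 1.08, 1.27 and 1.02 in WT Pre-Tx, a log2 difference of -0.11 with overlapping groups. Lat differed by -0.33 and Plcg1 by -0.04, both with overlap. Fyn, Lcp2, Vav1, Grap2 and Txk were higher per CD3 transcript, by 1.17 (Lcp2) to 1.32 (Txk) on the log2 scale and without overlap. These are 5 of 9 members, where 46.4% of all genes were higher without overlap and the median gene was higher by 0.78. An exact permutation test of 3 against 3 libraries cannot go below p = 0.1 (two-sided), which all 6 members without overlap reached.

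**Figure D2:**
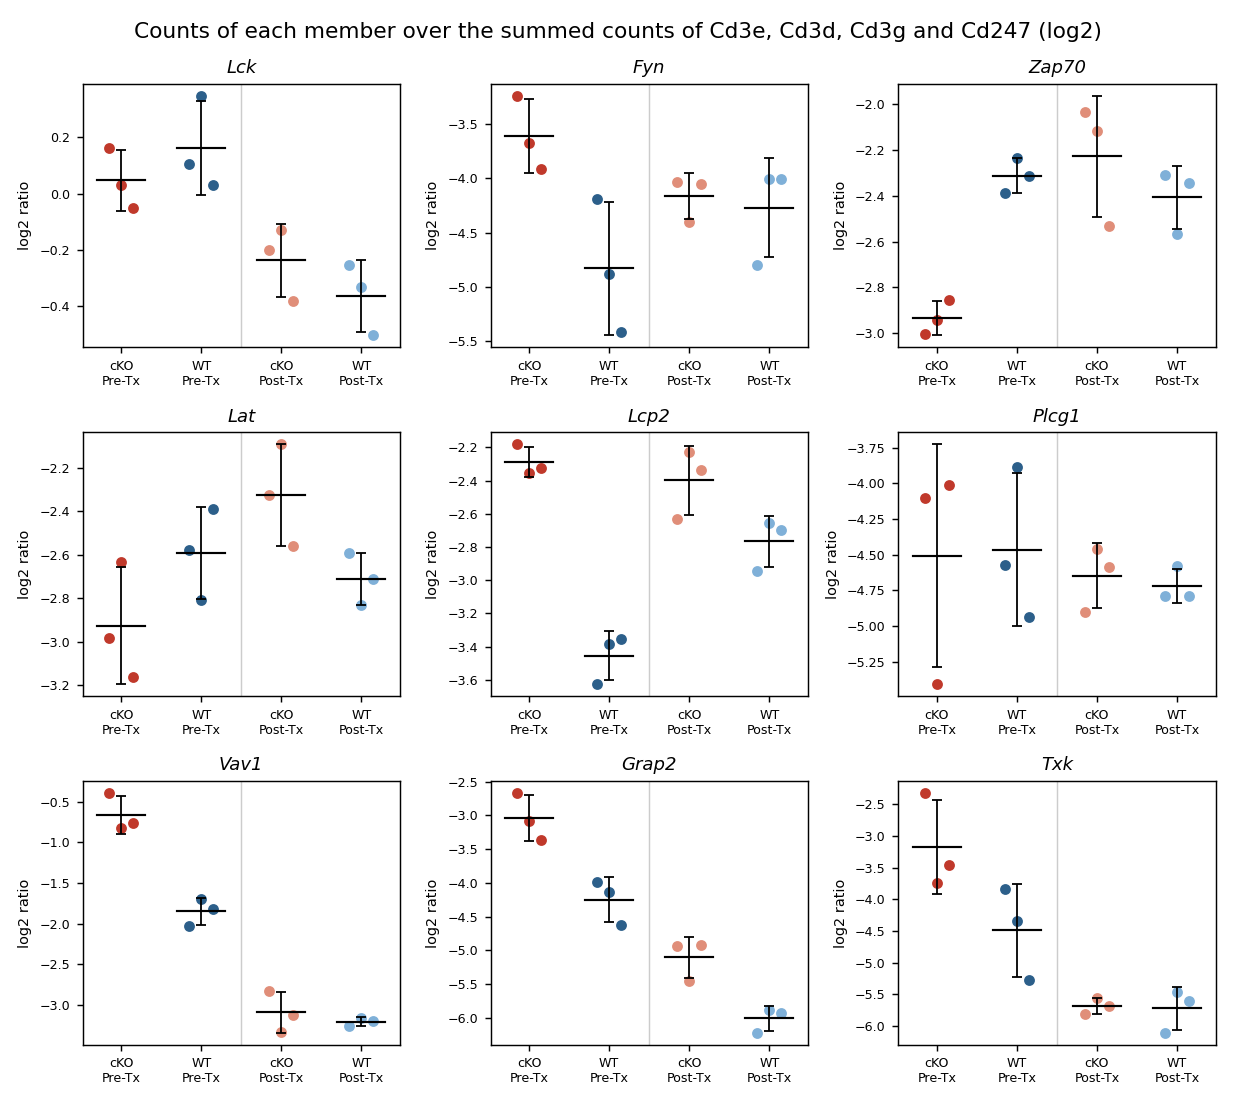
Log2 ratio of the counts of each member to the summed counts of Cd3e, Cd3d, Cd3g and Cd247 in each library, by group; points are libraries, bars the mean ± SD of 3. Zap70 lies lower in TCF-1 cKO Pre-Tx, by 0.62 against WT Pre-Tx, while Lck overlaps between the genotypes at both stages.

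Other genes of T cell receptor signaling moved in both directions before transplant. Of 41 such genes, 9 were higher, 6 lower and 26 not called in TCF-1 cKO Pre-Tx. The 4 with the smallest adjusted p were Tec, a Tec family kinase that is also used by B and myeloid cells (log2 fold change 1.84), Sit1, a transmembrane adaptor that dampens signaling (-1.78), and Cd3e and Cd3d. Of 10 counterparts of the members in B cell receptor signaling, 4 were higher and 0 lower. They were the Src family kinase Lyn (1.19), the Zap70 relative Syk (0.78), the Tec family kinase Btk (1.36) and the phospholipase Plcg2 (1.03).

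To examine the module during alloactivation, the libraries labelled TCF-1 cKO Post-Tx were compared with those labelled WT Post-Tx. Lck, Plcg1 and Txk were lower in TCF-1 cKO and no member was higher. These are 3 of 9 members, where 3.13% of all 19287 genes fell, and 0 of 9, where 3.52% rose. The median log2 fold change of the members was -0.79, against 0.09 over all genes. For 8 of 9 members it lay between -0.89 and -0.56, so called and uncalled members differed little in size.

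Lck had 1666, 1423 and 1401 normalized CPM in TCF-1 cKO Post-Tx, against 3367, 2173 and 2403 in WT Post-Tx. The groups did not overlap, and replicate 1 of WT was well above the others. The log2 fold change was -0.82 ± 0.24 with an adjusted p of 0.0451. Plcg1 had 64.3, 70.8 and 76.1 normalized CPM in TCF-1 cKO Post-Tx, against 145, 114 and 123 in WT Post-Tx. It was apart between the genotypes, at a log2 fold change of -0.86 ± 0.23 (adjusted p = 0.0391). Txk had 34.0, 33.0 and 35.5 normalized CPM in TCF-1 cKO Post-Tx, against 58.1, 62.3 and 70.0 in WT Post-Tx. Its groups were narrow and apart, with a log2 fold change of -0.89 ± 0.26 (adjusted p = 0.0452).

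In normalized CPM, Fyn, Vav1 and Lcp2 also did not overlap between the genotypes but missed the threshold. Fyn had 117, 73.4 and 110 normalized CPM in TCF-1 cKO Post-Tx against 144, 170 and 212 in WT Post-Tx (log2 fold change -0.81 ± 0.25, adjusted p = 0.0543). Vav1 had 270, 155 and 210 in TCF-1 cKO Post-Tx against 419, 306 and 371 in WT Post-Tx (-0.79 ± 0.24, adjusted p = 0.0563). Lcp2 had 309, 332 and 361 in TCF-1 cKO Post-Tx against 522, 434 and 525 in WT Post-Tx (-0.56 ± 0.22, adjusted p = 0.0945). All 3 TCF-1 cKO libraries were the lower ones in each of these genes.

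Zap70 had 467, 358 and 316 normalized CPM in TCF-1 cKO Post-Tx, against 809, 462 and 670 in WT Post-Tx. Replicate 2 of WT fell just under the highest TCF-1 cKO library, and the log2 fold change of -0.77 ± 0.25 was not called (adjusted p = 0.0639). Lat had 382, 365 and 310 in TCF-1 cKO Post-Tx against 667, 384 and 519 in WT Post-Tx (-0.57 ± 0.24, adjusted p = 0.116). WT replicate 2 was again the library nearest to TCF-1 cKO. Grap2, which bridges Lat and Lcp2, had 62.8, 35.6 and 60.3 in TCF-1 cKO Post-Tx against 53.9, 46.4 and 56.3 in WT Post-Tx. Its log2 fold change was 0.02 ± 0.28, and it was not called in any of the 5 comparisons or their alternatives.

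**Figure D3:**
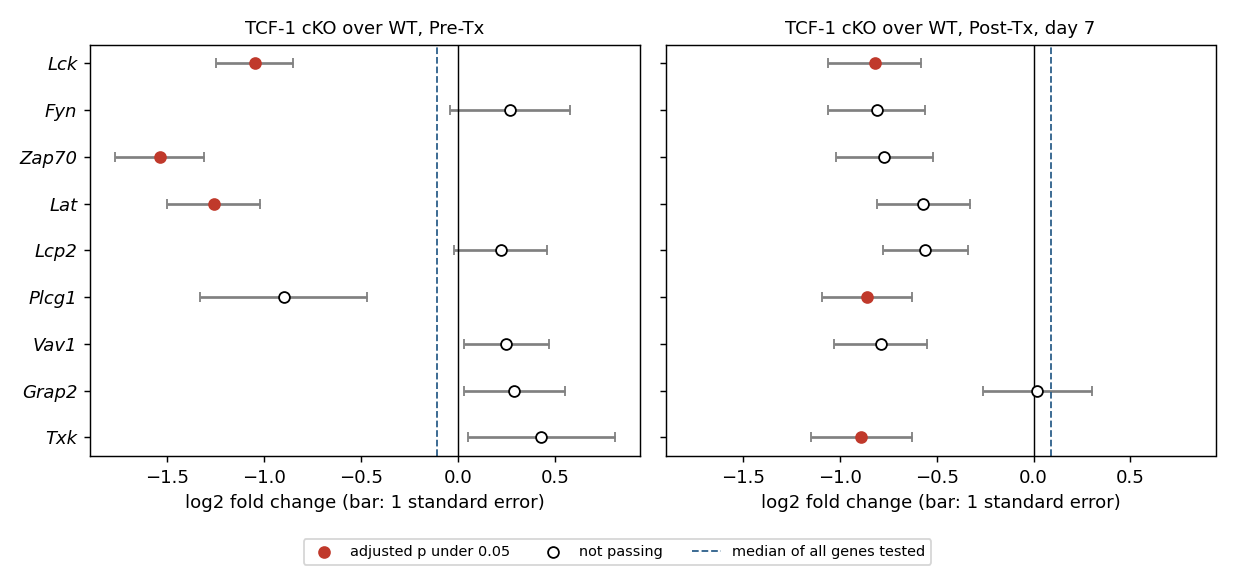
Log2 fold change of TCF-1 cKO over WT for the 9 members before transplant (left) and at day 7 (right), with bars of 1 standard error; red points passed an adjusted p of 0.05, open points did not, and the dashed line is the median of all genes tested. Before transplant Lck, Zap70 and Lat passed on the lower side, where Plcg1 at -0.90 did not pass. At day 7 all members but Grap2 lie between -0.89 and -0.56.

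The number of members called at day 7 depended on the scaling and on single libraries. DESeq2 called 7, voom with limma 6, and upper-quartile scaling, limma on TPM, protein-coding transcripts alone and the fit of all 12 libraries 0. Over all genes DESeq2 called 1929 higher and 1798 lower of 19287, and voom 1552 and 1298. Upper-quartile scaling called 687 higher and 111 lower of 19287, and limma on TPM 494 and 74 of 17515. Protein-coding transcripts gave 99 and 50 of 15745, and the fit of all 12 libraries 40 and 97 of 21434. Few genes of any kind were thus called there. Leaving out TCF-1 cKO Post-Tx replicate 1 gave 2 calls, which were Zap70 and Vav1, and leaving out WT Post-Tx replicate 2 gave 7, all members but Lcp2 and Grap2. Leaving out TCF-1 cKO Post-Tx replicate 2 or 3, or WT Post-Tx replicate 1 or 3, gave 0. The calls over all genes in these fits are not set beside these counts, which therefore do not single out the members. The TMM factors did not overlap, at 1.07 to 1.23 in TCF-1 cKO Post-Tx, against 0.807 to 0.963 in WT Post-Tx. In CPM without these factors Lck had 1779, 1743 and 1601 in TCF-1 cKO Post-Tx against 2716, 2091 and 2044 in WT Post-Tx, still without overlap, and the log2 ratio of the means was -0.42. Plcg1 (-0.45), Vav1 (-0.40), Txk (-0.50) and Lcp2 (-0.16) also remained lower without overlap on this scale, which was added after the values were seen. These are 5 of 9 members, where 6.53% of all genes were lower without overlap, and 0 of 9 were higher, where 30.5% of all genes were. Fyn had 125, 90.0 and 125 CPM in TCF-1 cKO Post-Tx, against 117, 164 and 180 CPM in WT Post-Tx, and these overlapped (-0.44). Zap70 (-0.36) and Lat (-0.16) overlapped as well, and Grap2 was at 0.40 with overlap. For all members but Grap2 these ratios lay closer to 0 than the fitted log2 fold changes. Before transplant, Lck, Zap70 and Lat were lower without overlap in this CPM (3 of 9, where 20.2% of all genes were) and Lcp2 was higher, by 0.28 (1 of 9, where 21.2% were). Olfactory receptor genes stood at 4484 to 12030 CPM in TCF-1 cKO Post-Tx, against 1088 to 3136 CPM in WT Post-Tx, and their part in the levels was not tested.

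Per CD3 transcript, the day 7 differences in most members were small. The CD3 chains summed to 2046, 1906 and 2087 CPM in TCF-1 cKO Post-Tx, against 3237, 2630 and 2895 CPM in WT Post-Tx. Each chain was itself called lower, with log2 fold changes of -1.16 (Cd247), -0.97 (Cd3e), -0.87 (Cd3g) and -0.83 (Cd3d). A ratio near that of WT thus means that a member fell about as much as the chains did. Relative to them, Lck differed by 0.12, Fyn by 0.10, Zap70 by 0.18, Plcg1 by 0.07, Vav1 by 0.11 and Txk by 0.04 on the log2 scale, all with overlapping groups. Lat (0.38), Lcp2 (0.37) and Grap2 (0.90) were higher in TCF-1 cKO Post-Tx without overlap. These are 3 of 9, where 54.1% of all genes were higher without overlap, and 0 of 9 were lower, where 0.586% of all genes were. The median member was at 0.12 and the median gene at 1.05. Without TCF-1 cKO Post-Tx replicate 3, 5 members were apart.

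The T cell marker sum was 5964 ± 287 CPM in TCF-1 cKO Post-Tx, against 8477 ± 680 CPM in WT Post-Tx (n = 3 each), and 10 of 13 were called lower. The erythroid marker sum was 1645 to 5745 CPM in TCF-1 cKO Post-Tx, against 709 to 1481 CPM in WT Post-Tx (5 of 6 called higher), and the macrophage and monocyte sum was 1416 to 1751 CPM in TCF-1 cKO Post-Tx, against 834 to 1161 CPM in WT Post-Tx (0 of 8 called, median log2 fold change 0.16). The platelet sum was 9.54 to 26.3 CPM in TCF-1 cKO Post-Tx, against 3.96 to 7.66 CPM in WT Post-Tx (0 of 4 tested called). The NK cell marker sum was 302 ± 59.7 CPM in TCF-1 cKO Post-Tx, against 511 ± 127 CPM in WT Post-Tx, with 1 of 7 tested called lower. The part of these cells in the member levels was not tested. Of the 41 other genes of T cell receptor signaling, 12 were lower, 0 higher and 29 not called. The CD3 chain Cd247 (log2 fold change -1.16), the adaptors Lax1 (-1.07) and Sh2d2a (-1.07), of which the second binds Lck, and protein kinase C theta, encoded by Prkcq (-1.01), had the smallest adjusted p. Among the 10 B cell receptor counterparts 0 passed, with a median of 0.32.

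The genotype difference was not the same at both stages for 4 members. In a fit of all 12 libraries, the difference at Post-Tx minus that at Pre-Tx was -1.11 ± 0.41 for Fyn (adjusted p = 0.0491) and -0.85 ± 0.30 for Lcp2 (adjusted p = 0.0435). It was -1.10 ± 0.34 for Vav1 (adjusted p = 0.0255) and -1.34 ± 0.49 for Txk (adjusted p = 0.0488). Within the stages their log2 fold changes were 0.22 to 0.43 before transplant, none called, and -0.89 to -0.56 at day 7, of which that of Txk was called. They are 4 of 9 members, where 11.5% of all 21434 genes were lower and 17.1% higher, and 0 members were higher. For Zap70 (0.71 ± 0.35) and Lat (0.63 ± 0.33) the difference was positive but not called, so their smaller fold at day 7 was not shown to differ from that before transplant.

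These 4 calls were fragile. Under upper-quartile scaling 0 members were called lower and Lck (0.85), Zap70 (1.40) and Lat (1.33) were called higher, while Fyn, Lcp2, Vav1 and Txk kept a negative sign at -0.45, -0.16, -0.41 and -0.68. That setting called 4865 of all 21434 genes higher and 720 lower, and it shifted the median gene by 0.67. Leaving out any 1 library except WT Pre-Tx replicate 2 or 3 left 0 to 2 calls, with 0 when TCF-1 cKO Post-Tx replicate 2 or WT Post-Tx replicate 3 was left out. Of the 41 other signaling genes, 20 were lower and 0 higher, led by the adaptor Sla (-1.90), the ubiquitin ligase Cbl (-2.47), and the phosphatases Ptpn22 (-2.21) and Ptprc (-2.24).

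Between Post-Tx and Pre-Tx libraries, some members were higher in both genotypes and others were not. Lck, Fyn, Zap70, Lat, Lcp2 and Plcg1 were higher at Post-Tx than at Pre-Tx in TCF-1 cKO cells and in WT cells. Vav1 and Txk fell in TCF-1 cKO cells and were not called in WT cells, and Grap2 was called in neither. In TCF-1 cKO cells 6 of 9 members were higher, where 14.2% of all genes were, and 2 of 9 lower, where 12.5% were. In WT cells 6 of 9 were higher, where 11.6% were, and 0 lower, where 10.4% were. Values for these comparisons are CPM normalized over all 12 libraries, as mean ± SD with n = 3 each. These comparisons use the libraries of the genotype comparisons again. The T cell markers were higher too, 10 of 13 in TCF-1 cKO Post-Tx (median log2 fold change 1.49) and 11 of 13 in WT Post-Tx (1.36), with 2 lower in each, beside member medians of 1.21 in TCF-1 cKO, against 1.22 in WT. Their part in the levels of the members was not tested.

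Among the kinases, Zap70 averaged 345 ± 69.8 in TCF-1 cKO Post-Tx against 74.3 ± 16.8 in TCF-1 cKO Pre-Tx, against 588 ± 162 in WT Post-Tx against 208 ± 30.2 in WT Pre-Tx. The stages did not overlap in either genotype, and the log2 fold changes were 2.21 in TCF-1 cKO and 1.50 in WT. Lck averaged 1355 ± 127 in TCF-1 cKO Post-Tx against 579 ± 61.3 in TCF-1 cKO Pre-Tx, against 2398 ± 527 in WT Post-Tx against 1161 ± 230 in WT Pre-Tx. Its log2 fold changes were 1.23 in TCF-1 cKO and 1.05 in WT. Fyn averaged 90.3 ± 19.1 in TCF-1 cKO Post-Tx against 45.9 ± 5.30 in TCF-1 cKO Pre-Tx, against 161 ± 41.1 in WT Post-Tx against 37.7 ± 13.2 in WT Pre-Tx. Fyn rose by 0.98 in TCF-1 cKO and by 2.09 in WT on the log2 scale.

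The adaptors Lat and Lcp2 rose in both genotypes too. Lat averaged 319 ± 38.8 in TCF-1 cKO Post-Tx against 74.2 ± 11.7 in TCF-1 cKO Pre-Tx, against 475 ± 127 in WT Post-Tx against 171 ± 23.7 in WT Pre-Tx (log2 fold changes 2.11 in TCF-1 cKO and 1.47 in WT). Lcp2 averaged 303 ± 22.8 in TCF-1 cKO Post-Tx against 115 ± 16.9 in TCF-1 cKO Pre-Tx, against 450 ± 66.6 in WT Post-Tx against 94.7 ± 17.1 in WT Pre-Tx (1.39 in TCF-1 cKO and 2.25 in WT). The rise of Lcp2 was the largest of the 9 in WT cells, and that of Zap70 the largest in TCF-1 cKO cells. Grap2 averaged 47.6 ± 12.5 in TCF-1 cKO Post-Tx against 68.2 ± 7.41 in TCF-1 cKO Pre-Tx, against 47.6 ± 7.13 in WT Post-Tx against 54.7 ± 11.3 in WT Pre-Tx. Neither of its log2 fold changes (-0.52 in TCF-1 cKO and -0.20 in WT) passed.

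The effectors went apart. Plcg1 averaged 63.8 ± 5.42 in TCF-1 cKO Post-Tx against 27.6 ± 14.6 in TCF-1 cKO Pre-Tx, against 116 ± 14.2 in WT Post-Tx against 49.6 ± 22.9 in WT Pre-Tx (log2 fold changes 1.21 in TCF-1 cKO and 1.22 in WT). Vav1 averaged 191 ± 48.8 in TCF-1 cKO Post-Tx against 355 ± 51.4 in TCF-1 cKO Pre-Tx, with no overlap and a log2 fold change of -0.89 (adjusted p = 0.0130). In WT cells it averaged 332 ± 55.7 at Post-Tx against 289 ± 59.3 at Pre-Tx and was not called. Txk, the remaining kinase, averaged 30.9 ± 0.519 in TCF-1 cKO Post-Tx against 66.3 ± 29.3 in TCF-1 cKO Pre-Tx (-1.10, adjusted p = 0.0294). In WT it averaged 57.9 ± 9.15 at Post-Tx and 49.0 ± 19.9 at Pre-Tx and was not called.

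Per CD3 transcript, a scale added here after the values were seen, the stages compared differently. Lck was lower at Post-Tx in both genotypes without overlap. Its mean log2 ratio was -0.24 ± 0.130 in TCF-1 cKO Post-Tx against 0.05 ± 0.108 in TCF-1 cKO Pre-Tx. In WT cells it was -0.36 ± 0.128 in WT Post-Tx against 0.16 ± 0.165 in WT Pre-Tx (SD, n = 3 each). Plcg1 overlapped in both, with differences of -0.14 in TCF-1 cKO and -0.25 in WT. Zap70 and Lat were higher without overlap in TCF-1 cKO Post-Tx, by 0.70 and 0.60, whereas in WT Post-Tx they overlapped, at -0.09 and -0.12. Lcp2 was higher without overlap in WT Post-Tx, by 0.69, and overlapped in TCF-1 cKO, at -0.11. Fyn was lower without overlap in TCF-1 cKO Post-Tx (-0.55) and overlapped in WT (0.56).

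Vav1, Grap2 and Txk were lower per CD3 transcript in both genotypes, each without overlap. Vav1 differed by -2.43 in TCF-1 cKO, against -1.36 in WT. Grap2 differed by -2.06 in TCF-1 cKO, against -1.75 in WT, and Txk by -2.52 in TCF-1 cKO, against -1.24 in WT. In TCF-1 cKO 5 of 9 members were lower without overlap, where 45.8% of all genes were, and 2 of 9 higher, where 6.98% were. In WT 4 of 9 were lower, where 61.2% were, and 1 of 9 higher, where 2.18% were.

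B cells carry Vav1 but mostly use other genes in place of Lck, Zap70 and Lat. All 10 B cell receptor counterparts were lower at Post-Tx in both genotypes, with median log2 fold changes of -4.75 in TCF-1 cKO and -4.65 in WT. Of all genes, 12.5% were lower in TCF-1 cKO and 10.4% in WT. The part of B cells in the levels of Vav1 and the other members was not tested. Of the 41 other T cell receptor signaling genes, 14 were higher and 9 lower in TCF-1 cKO Post-Tx, and 23 higher and 3 lower in WT Post-Tx. In TCF-1 cKO, the smallest adjusted p went to Tec (-4.21), the phosphatase Ptpn6 (-1.98), the Lck-inhibiting kinase Csk (-1.77) and Cd3d (1.66). In WT it went to Sh2d2a (2.26), Prkcq (2.20), Cd3g (2.26) and Sla (2.21). With 1 library left out at a time, Lck, Zap70, Lat and Lcp2 stayed called in both genotypes and Fyn in WT. In TCF-1 cKO, Fyn stayed called in 3 of 6 such fits, Vav1 in 4, Plcg1 in 2 and Txk in 1, and without TCF-1 cKO Post-Tx replicate 2 or 3 the calls numbered 5. In WT, Plcg1 stayed called in 2 of 6.

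The files give values per transcript, so that forms of a gene could be compared. Lck is transcribed from a distal and a proximal start, here 15250 bases apart on the minus strand of chromosome 4 in GRCm38. The proximal start took 3.77, 9.77 and 8.26% of Lck TPM from both starts in TCF-1 cKO Pre-Tx, against 10.9, 11.8 and 11.97% in WT Pre-Tx. All TCF-1 cKO Pre-Tx libraries were lower, with a mean difference of -4.28 points. In TCF-1 cKO Post-Tx the share was 13.8, 13.7 and 13.5%, against 13.5, 12.6 and 12.9% in WT Post-Tx. The Post-Tx groups touched but did not overlap, and the difference was 0.692 points. Most Lck RNA thus came from the distal start in every library.

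Fyn has a lymphoid form, FynT, and a longer form typical of brain, FynB, whose coding sequences differ by 3 codons in length. FynB took 3.35, 5.92 and 8.88% of the TPM of both forms in TCF-1 cKO Post-Tx, against 2.42, 1.49 and 0.230% in WT Post-Tx. The groups did not overlap, but FynB lay at 4.72 TPM or less in all of these libraries. Before transplant FynB took 7.15, 2.73 and 2.81% in TCF-1 cKO Pre-Tx and 11.2, 1.12 and 0.00% in WT Pre-Tx, which overlapped. FynT was the main form in all 12 libraries.

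The leading transcript of Txk, Txk-201, took 82.4, 67.2 and 79.6% of Txk TPM in TCF-1 cKO Post-Tx, against 90.0, 93.3 and 91.8% in WT Post-Tx. The TCF-1 cKO libraries were all lower, and before transplant the genotypes overlapped. The leading transcript of Lcp2 took 57.9 ± 4.57% in TCF-1 cKO Post-Tx and 43.6 ± 9.95% in WT Post-Tx (n = 3 each), without overlap. That of Lck took 78.3 ± 1.90% in TCF-1 cKO Post-Tx and 82.7 ± 1.05% in WT Post-Tx, also without overlap. Lck-207, a transcript annotated with a retained intron, took 8.48, 6.80 and 11.3% of Lck TPM in TCF-1 cKO Post-Tx, against 5.45, 4.08 and 4.21% in WT Post-Tx. In TPM the leading transcripts of Zap70, Lat, Plcg1, Vav1, Grap2 and Fyn overlapped between the genotypes at both stages. From estimated counts, that of Plcg1 took 92.9 ± 5.24% in TCF-1 cKO Pre-Tx, against 81.3 ± 3.64% in WT Pre-Tx, and that of Lck 91.4 ± 3.01% in TCF-1 cKO Pre-Tx, against 87.3 ± 0.171% in WT Pre-Tx (n = 3 each). Both were higher without overlap on that scale, whereas in TPM they overlapped. These shares are estimates of how kallisto divided reads among overlapping transcripts, and an exact permutation test of 3 against 3 could not go below p = 0.1.

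**Figure D4:**
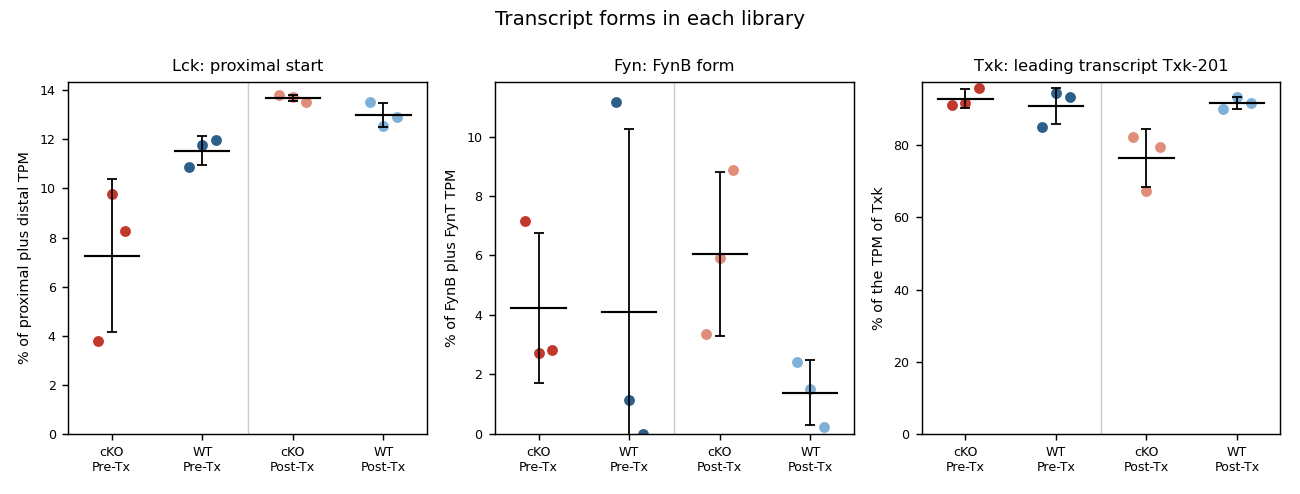
Share (%) of the proximal start of Lck, of the FynB form and of transcript Txk-201 in each library, by group, from TPM; points are libraries, bars the mean ± SD of 3. The proximal share of Lck is 3.77 to 9.77% in TCF-1 cKO Pre-Tx and 10.9 to 11.97% in WT Pre-Tx, and the Txk-201 share is lower in all TCF-1 cKO Post-Tx libraries than in any WT Post-Tx library.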

How the data were processed

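RNA was measured in 12 libraries, 3 in each of 4 groups. The estimated counts per transcript were made by the authors with kallisto 0.46.2 and deposited without normalization. The TPM values deposited with them were derived by kallisto from those counts and effective transcript lengths. The labels name mm9. Of 117497 transcripts, 99.1% were matched by identifier to GENCODE M21 on GRCm38, summed per gene and rounded. Totals were 17103415 to 49486745 per library, and 0.282 to 0.386% of counts were unmatched.

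With R 4.3.3, edgeR 4.0.16 (TMM, its filter on low counts, quasi-likelihood test) compared genotypes within a stage, and 1 fit of all 12 libraries gave the interaction and the transplant comparisons, with Benjamini-Hochberg adjustment over all genes tested. DESeq2 1.42.0, limma 3.58.1 (voom, and log2(TPM + 1)), upper-quartile scaling, no filter, protein-coding transcripts only, a replicate block and leaving out each library were tried. SE is the log2 fold change divided by the root of F. Ratios to the CD3 chains used raw counts. Fits were tested on simulated data. All 9 members are named, with up to 4 genes of each list by adjusted p. The members and lists were chosen with earlier results of these data known. Libraries with the same number were not treated as paired. Protein sequences were not used here.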

Additional observations from a re-analysis of the deposited data

Results flagged for a closer look

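For 4 members the genotype difference at Post-Tx differed from that at Pre-Tx in the interaction test of all 12 libraries. The log2 value, Post-Tx minus Pre-Tx, was -1.11 for Fyn, -0.85 for Lcp2, -1.10 for Vav1 and -1.34 for Txk. Adjusted p by edgeR's quasi-likelihood test lay between 0.0255 and 0.0491. They are 4 of 9 members, where 11.5% of all genes were lower and 17.1% higher. The calls were fragile, since these genes were not called under upper-quartile scaling. With 1 library left out, 0 to 4 members were called. Before transplant the log2 fold changes of these genes in TCF-1 cKO over WT were 0.22 to 0.43, and at day 7 they were -0.89 to -0.56. The B cell marker sum of both genotypes also fell between the stages, to between 76.7 and 134 CPM in TCF-1 cKO Post-Tx, with 56.7 to 106 CPM in WT Post-Tx, and its part in these differences was not tested.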

How the results depend on the processing

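Before transplant the 3 calls were made under all 8 other tools and scalings, and 0 to 3 were made with 1 library left out. At day 7 the count of 3 became 7 with DESeq2 and with the replicate block, 6 without a filter and with voom, and 0 with upper-quartile scaling, limma on TPM, protein-coding transcripts or 1 fit of 12 libraries (0 to 7 with 1 library left out). The calls over all genes changed as well, from 1929 higher and 1798 lower with DESeq2 to 40 higher and 97 lower in 1 fit of 12 libraries. Interaction calls numbered 4, but 2 with limma on TPM, 1 with protein-coding transcripts and 1 with the replicate block (0 to 4 with 1 library left out). Transplant calls with 1 library left out numbered 5 to 6 in TCF-1 cKO and 5 to 6 in WT. Members apart per CD3 transcript numbered 6 to 7 before transplant and 3 to 5 after it.

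Upper-quartile scaling shifted the median gene by -0.36 before transplant, 0.28 at day 7 and 0.67 in the interaction. Higher calls became 23.5% of all calls before transplant (60.1% with TMM), 86.1% at day 7 (52.9% with TMM) and 87.1% in the interaction (59.7% with TMM). With limma on TPM the higher share was 76.8% before transplant and 87.0% at day 7. Signs of uncalled values turned with upper-quartile scaling before transplant (Fyn -0.10, Lcp2 -0.13, Vav1 -0.11, Grap2 -0.07), in the interaction (Plcg1 0.65, Grap2 0.35) and in the WT transplant comparison (Vav1 -0.11, Txk -0.03). Day 7 Grap2 turned to -0.02 with DESeq2 and with the replicate block, -0.04 without a filter and -0.06 with voom. In the interaction Lck turned to -0.10 without a filter, and Plcg1 to 0.10 with voom, 0.21 on TPM and 0.02 with the replicate block. Grap2 in the WT transplant comparison turned to 0.07 on TPM. With 1 library left out, Grap2 ranged from -0.17 to 0.23 at day 7 and from -0.31 to 0.12 in the WT transplant comparison, and in the interaction Lck ranged from -0.04 to 0.34 and Plcg1 from -0.52 to 0.39. The cause of these turns was not tested.

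From estimated counts in place of TPM, the day 7 difference in the share of the leading transcript was -24.0 points for Txk (-15.3 from TPM) and -1.18 for Lck (-4.36 from TPM).

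Residuals of libraries with the same number correlated at -0.272 to 0.248, so the labels' numbers were not taken to pair them. With 3 libraries in a group and Plcg1 at 294 to 1296 counts per library before transplant, the SE of its log2 fold change was 0.43, against 0.20 for Lck.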

Other observations

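Genes outside the module were ranked by how their log2 CPM followed the mean standardized level of the 9 members over the 12 libraries, among 9182 protein-coding genes with a mean of at least 10 CPM. The 5 closest were St3gal4, a sialyltransferase, Anxa5, Diaph1, an actin-nucleating formin, Lpar5, a lysophosphatidic acid receptor, and Afg3l1, with Pearson's r of 0.944 to 0.968. The 12 libraries share 2 stages that differ in most of these levels, so r describes the order of the libraries and carries no test. The mean joins members that did not move together. Over the libraries r was 0.711 to 0.983 among Lck, Fyn, Zap70, Lat, Lcp2 and Plcg1, and 0.597 to 0.615 among Vav1, Grap2 and Txk. Between these sets r ran from -0.668 (Lat and Grap2) to 0.143 (Fyn and Txk).

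A Vav1 transcript with 24 fewer codons than the leading one took 28.0, 12.2 and 23.0% of the TPM of both in TCF-1 cKO Pre-Tx, against 2.13, 16.7 and 4.61% in WT Pre-Tx, and the groups overlapped. At day 7 it took 16.5 ± 8.11% in TCF-1 cKO Post-Tx and 10.1 ± 5.02% in WT Post-Tx (SD, n = 3 each), also with overlap.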
